A study of Mus musculus with 15 samples.

Results

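The 7 genes described here encode hormones of the intestinal L cell and enzymes of the proprotein convertase family: Gcg, Pyy, Insl5, Nts, Pcsk1, Pcsk2 and Pcsk7. They were taken by symbol from a table of 45804 genes measured in the cecum of 15 wild-type C57BL/6 mice. In 7 of these mice, the microbiome had been depleted by gavage of amphotericin B, ampicillin, metronidazole, neomycin and vancomycin (antibiotic-induced microbiome depletion, AIMD). The other 8 mice received water by gavage (vehicle). Treatment had lasted 30 days, the labels give an age of 20 weeks for every mouse, and the methods describe male mice fed normal chow. Each library is the whole emptied cecum of 1 mouse, so L-cell transcripts were read out of a mixture of epithelium, muscle, nerve and immune cells. In such bulk RNA, a change in the number of L cells and a change in RNA per L cell cannot be told apart. On GRCm38 (GENCODE M21), the hormone genes lie at chr2:62474530-62483650 (Gcg), chr11:102106676-102107832 (Pyy), chr4:103017872-103026842 (Insl5) and chr10:102481756-102490486 (Nts), all on the minus strand. The convertase genes lie on the plus strand, at chr13:75089826-75134861 (Pcsk1), chr2:143546156-143816285 (Pcsk2) and chr9:45906497-45929726 (Pcsk7).

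L cells are endocrine cells scattered through the epithelium of the distal gut. They store peptide hormones in granules and release them on contact with nutrients, bile acids and microbial products. Most of these hormones are made as longer precursors that convertases cut at basic residues. Proglucagon, the product of Gcg, yields GLP-1 and GLP-2 where prohormone convertase 1/3 (Pcsk1) acts, and glucagon where prohormone convertase 2 (Pcsk2) acts. GLP-1 enhances glucose-dependent insulin release, GLP-2 is a growth factor of the intestinal epithelium, peptide YY (Pyy) slows transit and restrains feeding, neurotensin (Nts) acts on gut motility and fat absorption, and insulin-like peptide 5 (Insl5) is a relaxin-family hormone of the distal colon. Pcsk7 is a broadly expressed convertase of the secretory pathway. The comparison asks whether the transcripts of these hormones, and of the enzymes that cut their precursors, differed between AIMD and vehicle-treated mice. Effects of the drugs themselves and of the loss of microbiota cannot be told apart in this design.

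The libraries held 8679672 to 18108573 reads on genes in the AIMD group and 4372409 to 14405935 in the vehicle group. Vehicle replicate 8 stood apart, with the fewest reads of the 15 mice, the highest summed level of 15 enteric neuron markers (114 FPKM against 8.00 to 34.1 in the other vehicle-treated mice and 4.16 to 8.77 in AIMD mice) and the highest sum of 8 smooth muscle markers (3639 FPKM, against 596 to 1633 and 242 to 909). The sum of 8 epithelial markers was 5596 FPKM in that mouse, within the 4351 to 6839 of AIMD mice and above the 3714 to 5184 of the other vehicle-treated mice. FPKM, reads scaled to transcript length and to a depth of each library, is the deposited unit and allows levels of different genes to be set side by side. The depth behind the values was not the count of reads on genes. It was 5162136 against 6486308 reads in vehicle replicate 5 and 13139115 against 11244634 reads in AIMD replicate 6.

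Of the 7 genes, 6 were expressed highly enough to be tested, and these 6 were higher in AIMD mice at an adjusted p under 0.05 (limma, Benjamini–Hochberg over 11971 genes). Across all genes tested, 36.0% were called and 19.4% were called as higher and 16.6% as lower. The 4 genes Gcg, Pyy, Insl5 and Pcsk7 were higher in every AIMD mouse than in any vehicle-treated mouse, which held for 5.26% of the genes tested. Pcsk2 did not reach the filter of 0.5 FPKM in 7 mice. Insl5 reached it only with the help of the AIMD mice, since 2 vehicle-treated mice lay under 0.5 FPKM, and it was also called when no filter was applied. Exact permutation tests over the 6435 splits of the mice, with a smallest possible p of 0.000155, are given beside the fold changes.

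**Figure D1:**
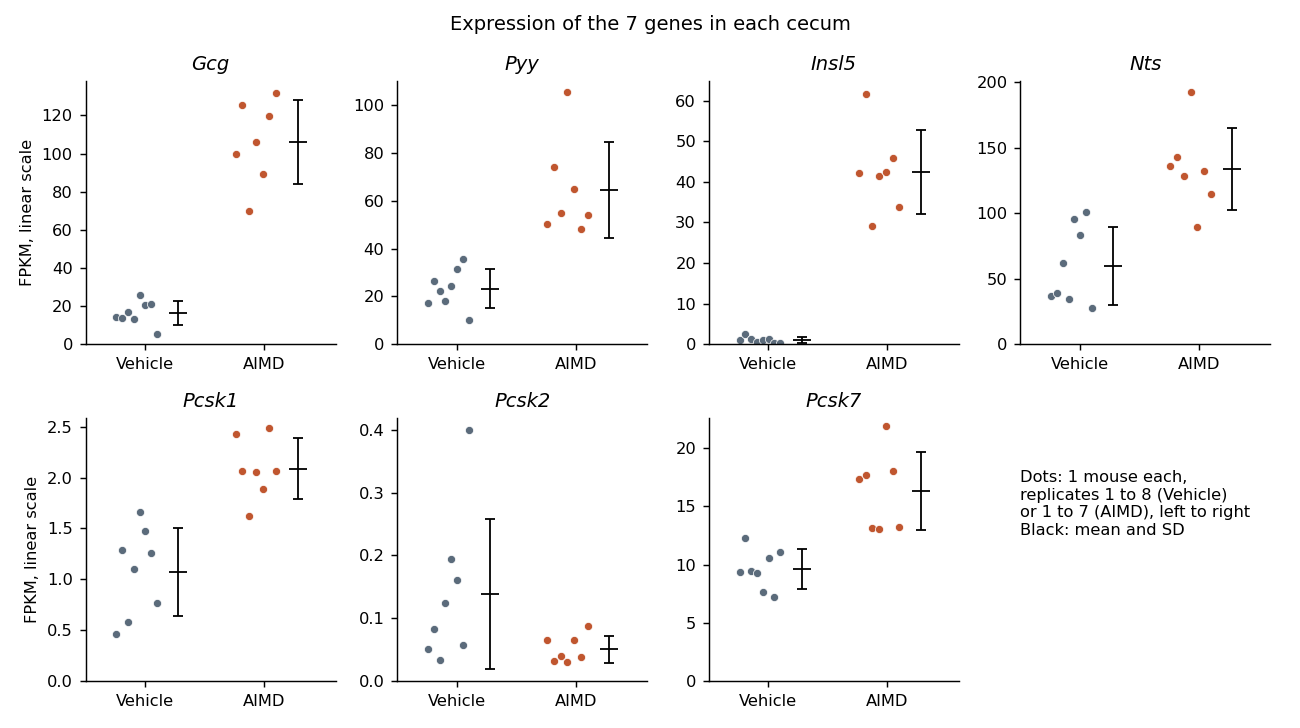
FPKM of each of the 7 genes in each cecum (linear axes from 0), with 1 dot per mouse and the mean ± SD of each group in black. Gcg, Pyy, Insl5 and Pcsk7 show no overlap between the groups, Nts and Pcsk1 overlap in part, and Pcsk2 is highest in vehicle replicate 8 at 0.40 FPKM.

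Insl5 showed the largest difference of the 7. Its lowest, median and highest values were 0.21, 0.99 and 2.43 FPKM in vehicle-treated mice and 29.2, 42.1 and 61.8 FPKM in AIMD mice. The transcript was thus near the limit of detection in vehicle-treated ceca, where 1 to 24 reads per mouse and 56 reads in all were counted, against 253 to 542 reads in each AIMD mouse. The group means were 42.4 ± 10.3 (SD, n = 7) and 1.02 ± 0.71 FPKM (SD, n = 8), a ratio of 41.5. The log2 fold change of FPKM + 0.5 was 4.92 ± 0.25 (SE, limma adjusted p = 1.5e-09; exact permutation p = 0.000155), and it lay between 4.78 and 5.07 with any 1 mouse left out. Because the added 0.5 is of the order of the vehicle level, this scale understates the change, and a pseudocount of 0.1 gave 5.48.

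Gcg was the second most changed hormone gene. Vehicle-treated mice ranged from 5.30 to 25.7 FPKM around a median of 15.6, and AIMD mice from 69.6 to 132 with a median of 106. The lowest AIMD mouse was thus far above the highest vehicle-treated mouse. The means were 106 ± 21.8 (SD, n = 7) and 16.3 ± 6.22 FPKM (SD, n = 8), 6.49-fold apart, and the log2 fold change was 2.74 ± 0.25 (SE, limma adjusted p = 8.3e-07; exact permutation p = 0.000155). Vehicle replicate 8, with 35 Gcg reads, was the lowest of all mice, and the log2 fold change without it was 2.54.

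Pyy, the other classical L-cell hormone, rose less than Gcg. Vehicle-treated mice spanned 10.04 to 35.5 FPKM (median 23.3) and AIMD mice 48.0 to 105 FPKM (median 54.7), again without overlap. The means were 64.6 ± 20.1 (SD, n = 7) and 23.2 ± 8.17 FPKM (SD, n = 8), a ratio of 2.79. The log2 fold change was 1.497 ± 0.23 (SE, limma adjusted p = 0.00015; exact permutation p = 0.000155). AIMD replicate 4 was the highest at 105 FPKM and vehicle replicate 8 the lowest at 10.04 FPKM, and the log2 fold change was 1.34 without the latter.

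Nts was the most abundant of the 4 hormone transcripts in vehicle-treated mice and the most variable among them apart from Insl5. Its vehicle values fell between 27.7 and 101 FPKM with a median of 50.4, and its AIMD values between 89.8 and 193 FPKM with a median of 132. The groups overlapped: AIMD replicate 5, at 89.8 FPKM, lay below vehicle replicates 5 and 7, at 95.2 and 101 FPKM. The means were 134 ± 31.3 (SD, n = 7) and 60.0 ± 29.7 FPKM (SD, n = 8), and the log2 fold change of 1.28 ± 0.27 passed the test (SE, limma adjusted p = 0.0018; exact permutation p = 0.0016). Neurotensin cells are abundant in the ileum, which joins the cecum, and the summed level of 10 ileal marker genes was uneven, with 34.2 to 128 FPKM in 4 vehicle-treated mice and 572 to 2345 FPKM in the other 4. Nts was between 36.8 and 83.7 FPKM in the former and between 27.7 and 101 FPKM in the latter. In AIMD mice the ileal sum was 74.2 to 843 FPKM, and its part in the Nts values was not tested.

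Pcsk1, which releases GLP-1 from proglucagon, was expressed at a far lower level than Gcg. Vehicle-treated mice spanned 0.46 to 1.66 FPKM (median 1.18) and AIMD mice 1.63 to 2.49 FPKM (median 2.06), on 11 to 57 and 56 to 139 reads per mouse. Of the 7 AIMD mice, 6 were above every vehicle-treated mouse. The means of 2.09 ± 0.30 (SD, n = 7) and 1.07 ± 0.43 FPKM (SD, n = 8) were 1.95-fold apart, with a log2 fold change of 0.76 ± 0.17 (SE, limma adjusted p = 0.0024; exact permutation p = 0.00078). A fit to the recovered reads, which needs no pseudocount of FPKM, gave a log2 fold change of 1.02.

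Pcsk7 was the most abundant of the 3 convertases. Vehicle-treated mice spanned 7.19 to 12.3 FPKM (median 9.41) and AIMD mice 13.0 to 21.9 FPKM (median 17.4), so that the groups met closely without overlapping. The means were 16.4 ± 3.35 (SD, n = 7) and 9.61 ± 1.70 FPKM (SD, n = 8), with a log2 fold change of 0.73 ± 0.14 (SE, limma adjusted p = 0.00081; exact permutation p = 0.00031). In GENCODE M21, the gene lies opposite 2 others. Of its 5202 exonic bases, 415 are also exon of Rnf214 and 108 are also exon of Tagln, both on the other strand. The deposited Pcsk7 values gave whole reads at a length of 3784 bases rather than 5202, so the exons counted may not hold all of these bases. Whether reads were assigned by strand is not given in the sources used here, so reads from the overlaps may count toward either gene. Rnf214 was at 2.32 ± 0.35 and 2.06 ± 0.45 FPKM in AIMD and vehicle-treated mice (limma adjusted p = 0.37), and Tagln, which encodes a smooth muscle actin-binding protein, fell by 1.17 on the log2 scale in AIMD mice (limma adjusted p = 0.0045), opposite to Pcsk7.

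Pcsk2 was close to undetectable in the cecum, with 2 to 14 reads in each vehicle-treated mouse and 2 to 9 in each AIMD mouse. The values were 0.034 to 0.40 FPKM (median 0.10) in the vehicle group and 0.030 to 0.087 FPKM (median 0.040) in the AIMD group, and every AIMD value lay within the vehicle range or below it. The difference in mean log2(FPKM + 0.5) was -0.19 (exact permutation p = 0.042, not adjusted), and it did not pass when all detected genes entered the fit without a filter (limma adjusted p = 0.17). The highest value was that of vehicle replicate 8, the mouse with the highest neuron and muscle markers, and without this mouse the difference was -0.12 (exact permutation p = 0.064). With so few reads, no firm difference of Pcsk2 can be given.

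**Figure D2:**
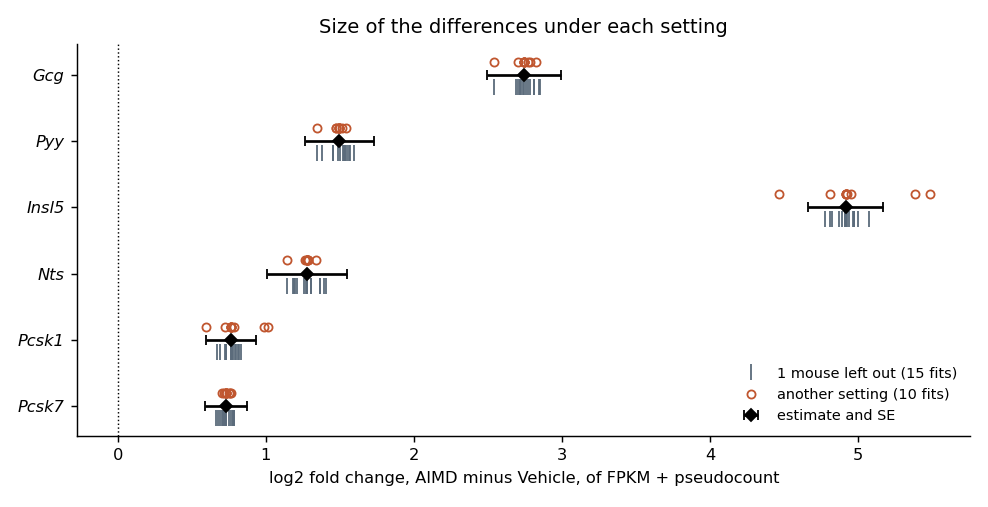
Log2 fold change (AIMD minus vehicle) of the 6 tested genes, with the estimate ± SE in black, 15 fits that each leave out 1 mouse as grey ticks and 10 fits with another setting as open circles. Every fit lies above 0, and Insl5 and Pcsk1 vary the most between settings, from 4.46 to 5.48 and from 0.60 to 1.02 (the fit to reads is on a scale of reads relative to library size).

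By level, the genes stood in a different order in the 2 groups. In vehicle-treated mice, the order of mean FPKM was Nts, Pyy, Gcg, Pcsk7, Pcsk1, Insl5 and Pcsk2. In AIMD mice it was Nts, Gcg, Pyy, Insl5, Pcsk7, Pcsk1 and Pcsk2. Gcg was above Pyy in 7 of 7 AIMD mice but below it in 7 of 8 vehicle-treated mice, and Insl5 moved from below Pcsk7 in every vehicle-treated mouse to above it in every AIMD mouse. The log2 ratio of neighbours in each mouse was tested by exact sign-flip permutation, adjusted over 12 neighbouring pairs, which were taken from the order of these same means. In vehicle-treated mice, it did not differ from 0 beyond its spread between mice for Gcg and Pcsk7 (adjusted p = 0.094) and Pcsk1 and Insl5 (adjusted p = 0.68). In AIMD mice, this held for Nts and Gcg (adjusted p = 0.12).

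The summed FPKM of Gcg, Pyy, Insl5 and Nts was 101 ± 42.2 in vehicle-treated mice (SD, n = 8; lowest 43.4, highest 158) and 347 ± 59.6 in AIMD mice (SD, n = 7; lowest 282, highest 445). The make-up of this sum differed as well. Insl5 made up 1.13 ± 0.84% of it in vehicle-treated mice and 12.3 ± 2.37% in AIMD mice, and Gcg 16.5 ± 2.98% and 30.8 ± 5.40%. Nts went the other way, from 58.4 ± 6.59% to 38.5 ± 5.16%, although its own level rose. The ranges of the shares did not overlap for these 3 genes, whereas the Pyy share overlapped, with 16.6 to 32.7% in vehicle-treated mice and 13.9 to 23.6% in AIMD mice.

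**Figure D3:**
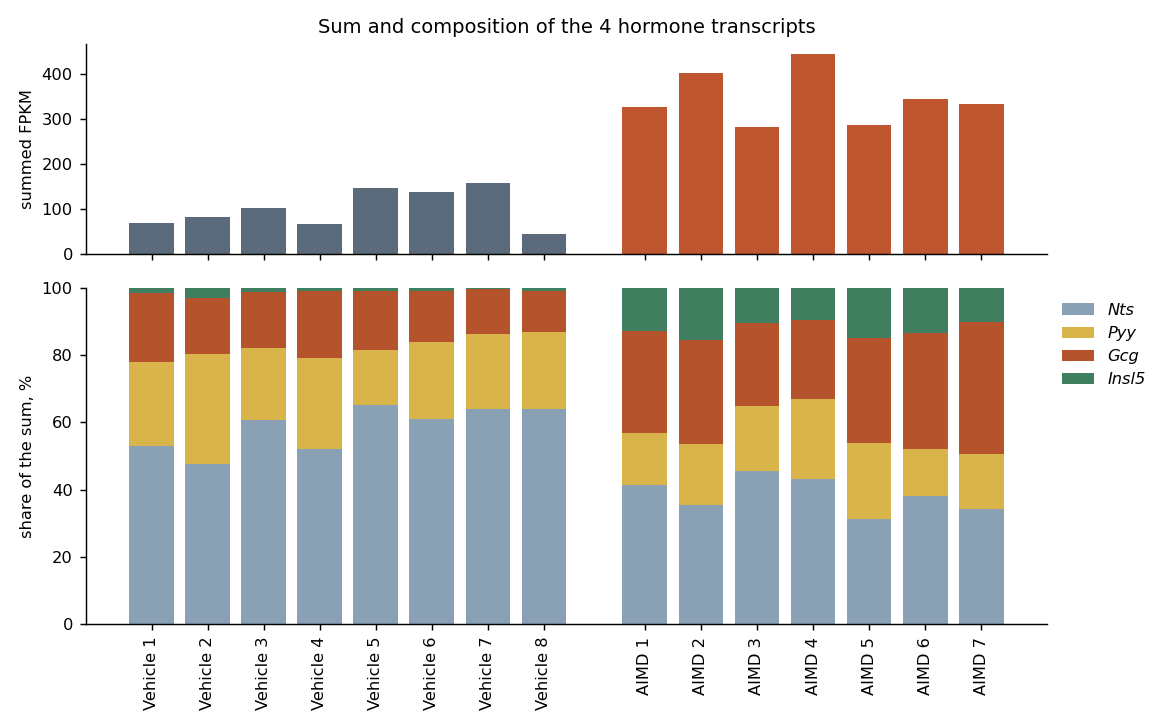
Summed FPKM of Gcg, Pyy, Insl5 and Nts in each mouse (upper bars, axis from 0) and the percentage of that sum from each gene (lower stacked bars). The share of Insl5 is under 3% in every vehicle-treated mouse and between 9.33 and 15.3% in AIMD mice, and the share of Nts is lower in every AIMD mouse than in any vehicle-treated mouse.

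Whether the genes changed by different amounts was tested on the log2 ratio of each pair within a mouse, with exact permutation over the splits and adjustment over 21 pairs. In all, 17 of the 21 ratios differed between the groups, among them 5 of the 6 ratios between hormones. The 17 include every ratio with Pcsk2, which had 2 to 14 reads per vehicle-treated mouse and 2 to 9 per AIMD mouse. With the pseudocount, log2 Pcsk2 differed between the groups by -0.19, so these ratios mostly restate the change of the other gene. They do not show a firm change of Pcsk2 itself. Insl5 rose more than every other member: in AIMD mice the log2 ratio of Gcg to Insl5 was lower, with a difference of -2.17 (95% interval -2.86 to -1.501; adjusted p = 0.00050), as was that of Pyy to Insl5, with -3.42 (-4.11 to -2.80; adjusted p = 0.00036), while that of Insl5 to Nts was higher by 3.64 (2.80 to 4.51; adjusted p = 0.00036). Gcg in turn rose more than Pyy, by 1.25 (0.78 to 1.71; adjusted p = 0.00070), and more than Nts, by 1.47 (1.02 to 1.91; adjusted p = 0.00036).

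Of the hormones, Gcg and Insl5 rose more than Pcsk1, and for Pyy this depended on the pseudocount. The log2 ratio of Gcg to Pcsk1 was 5.34 ± 0.24 (SD) with AIMD and 3.36 ± 0.60 (SD) with vehicle. This was a difference of 1.98 (95% interval 1.48 to 2.51, adjusted exact permutation p = 0.00036). For Insl5 over Pcsk1 the difference was 4.15 (3.51 to 4.82, adjusted exact permutation p = 0.00036). For Pyy over Pcsk1 it was 0.73 (0.21 to 1.26, adjusted exact permutation p = 0.012). With a pseudocount of 0.1 the Pyy difference was 0.53 and did not pass (adjusted exact permutation p = 0.096). The difference for Gcg over Pcsk7 was 2.01 (1.29 to 2.78; adjusted p = 0.00050). With the added 0.5, 4 ratios did not pass. They were Pyy to Nts (difference 0.22, interval -0.22 to 0.66), Nts to Pcsk1 (0.51, -0.070 to 1.08), Nts to Pcsk7 (0.54, -0.32 to 1.41) and Pcsk1 to Pcsk7 (0.030, -0.46 to 0.51). These intervals do not show that the genes of a pair changed alike. The ratio of Pyy to Pcsk7 passed with all mice (0.76, adjusted p = 0.035) but not in 8 of the 15 tests that left out 1 mouse: AIMD replicate 2, 3, 4 or 7, or vehicle replicate 1, 2, 4 or 8 (0.58 without the last, adjusted p = 0.063).

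Within a group, 6 hormone pairs were correlated across mice in each group, which makes 12 relations. Of these, 3 passed, all in vehicle-treated mice (n = 8). Gcg and Nts went together most closely, with Pearson's r = 0.86 (exact permutation p = 0.00037, adjusted 0.0045) and Spearman's rho = 0.95 (p = 0.0011, adjusted 0.014, exact permutation). Without vehicle replicates 5 and 8, the 2 mice farthest from the median of Gcg, r was 0.99 (exact permutation p = 0.0042, adjusted 0.050), and without vehicle replicate 8 alone it was 0.95 (adjusted exact permutation p = 0.069), so that the call was lost in both while r was higher. Gcg and Pyy had r = 0.86 (exact permutation p = 0.010, adjusted 0.041) and rho = 0.69 (exact permutation p = 0.069, adjusted 0.28). Without the same 2 mice r was 0.80 (exact permutation p = 0.069), and without vehicle replicate 8 alone it was 0.59, so the call was lost. Pyy and Nts had r = 0.81 (exact permutation p = 0.0099, adjusted 0.041) and rho = 0.86 (exact permutation p = 0.011, adjusted 0.064), and r was 0.66 (exact permutation p = 0.18) without vehicle replicates 7 and 8, 0.75 without replicate 7 alone and 0.76 without replicate 8 alone.

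No correlation of Insl5 with another hormone passed in vehicle-treated mice, with r = 0.29 to Gcg, 0.30 to Pyy and -0.0035 to Nts (adjusted exact permutation p from 0.75 to 0.99). With 1 to 24 reads per mouse, its vehicle values carry large counting error. In AIMD mice (n = 7), no pair passed: r was 0.57 for Gcg and Insl5, 0.56 for Pyy and Nts, and between 0.073 and 0.30 for the other 4 (adjusted exact permutation p from 0.50 to 0.93). Whether the correlations differ between the groups was not tested. As a description over all 15 mice with each group centred on its mean, r was 0.75 for Gcg and Nts, 0.75 for Pyy and Nts, 0.68 for Gcg and Pyy, and 0.50 for Gcg and Pcsk1. The value for Gcg and Pyy was 0.34 without vehicle replicate 8, and that for Gcg and Nts 0.69. Pcsk7 ran against Nts, with r = -0.58.

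**Figure D4:**
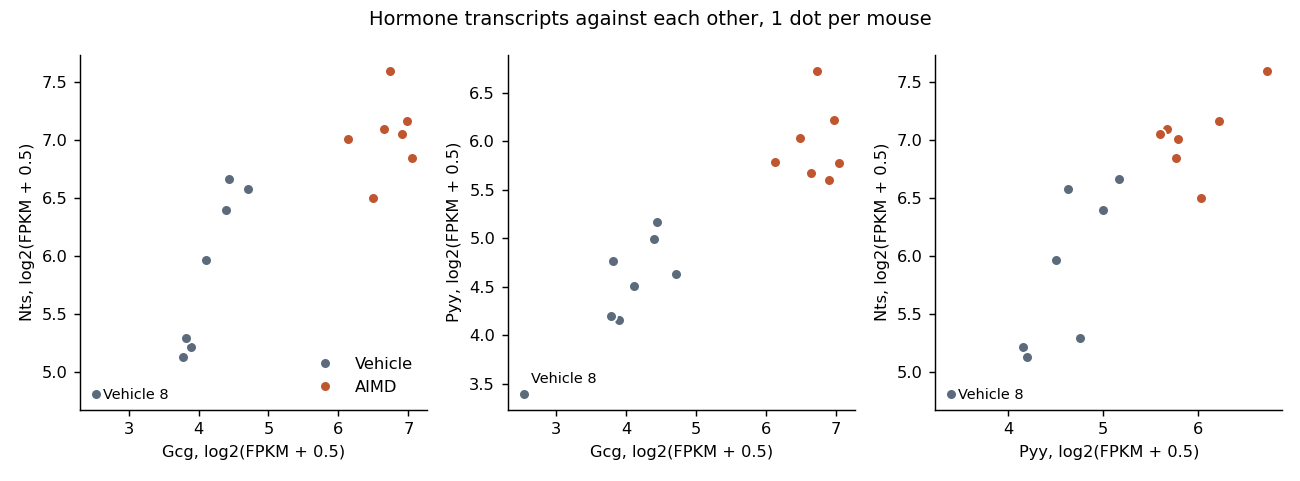
Log2(FPKM + 0.5) of Nts against Gcg, Pyy against Gcg and Nts against Pyy, with 1 dot per mouse and vehicle replicate 8 named. The vehicle dots rise together in each panel (r = 0.86, 0.86 and 0.81, n = 8), and vehicle replicate 8 lies at the lower end of all 3.

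The study's own test held time of sacrifice as a factor, and the labels give no time for any mouse. The 14 core clock genes that could be tested separated the mice into 2 clusters, with 92.2% of their variance within groups on 1 axis. The first cluster held 3 AIMD and 4 vehicle-treated mice and the second held 4 of each. Gcg, Pyy and Insl5 were higher in every AIMD mouse than in any vehicle-treated mouse within each cluster (exact permutation p = 0.029 in each, the smallest that these numbers allow). Their log2 differences were 2.68 and 2.78 for Gcg, 1.49 and 1.48 for Pyy, and 4.66 and 5.19 for Insl5. Those of Pcsk1 were 0.94 and 0.57 and those of Pcsk7 0.64 and 0.82, also without overlap (exact permutation p = 0.057 and 0.029 for each). For Nts, they were 1.68 in the first cluster (exact permutation p = 0.029) and 0.88 in the second (exact permutation p = 0.086), where vehicle-treated mice averaged 76.9 ± 33.6 FPKM (SD, n = 4) against 43.0 ± 12.8 FPKM (SD, n = 4) in the first. The difference of 0.80 between the clusters was not significant for Nts (limma interaction term, adjusted p = 0.99), nor was that of the other 5 tested genes (each with an adjusted p of at least 0.99). Over all 11971 genes, limma called 0 interactions, with 534 genes at an unadjusted p under 0.05. A cluster of 4 mice is too small for a correlation of its own, and with values centred within group and cluster r was 0.83 for Gcg and Nts and 0.67 for Gcg and Pyy.

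The 250 bases before the annotated start were read for each gene from RefSeq on GRCm38.p6, and 3 of these windows are shown because they carry the motifs that differ between the genes most. Capitals mark TATAAA, 1 form of the TATA box, on either strand in Gcg and Insl5. In Pcsk1 they mark TGACG, the core of the cAMP response element, on either strand.
Gcg: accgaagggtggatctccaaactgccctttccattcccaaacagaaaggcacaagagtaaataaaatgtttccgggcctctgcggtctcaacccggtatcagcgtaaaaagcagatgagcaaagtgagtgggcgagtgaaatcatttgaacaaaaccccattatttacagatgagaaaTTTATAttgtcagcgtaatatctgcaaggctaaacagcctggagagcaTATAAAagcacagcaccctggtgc
Insl5: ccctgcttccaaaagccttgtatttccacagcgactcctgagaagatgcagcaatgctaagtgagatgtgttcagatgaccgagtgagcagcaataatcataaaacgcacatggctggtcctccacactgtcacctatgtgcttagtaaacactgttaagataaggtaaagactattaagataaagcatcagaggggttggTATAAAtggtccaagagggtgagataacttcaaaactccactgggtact
Pcsk1: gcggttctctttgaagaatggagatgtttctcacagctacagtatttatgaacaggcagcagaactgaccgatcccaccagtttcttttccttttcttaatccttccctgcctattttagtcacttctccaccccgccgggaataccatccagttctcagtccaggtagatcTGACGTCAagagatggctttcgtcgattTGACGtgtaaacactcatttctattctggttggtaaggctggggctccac
They lie at chr2:62483654-62483903 (minus strand), chr4:103026729-103026978 (minus strand) and chr13:75089607-75089856 (plus strand). Gcg and Insl5 were the ones of the 7 with the exact letters TATAAA in the window, starting 24 and 49 bases before the start. Gcg held a second copy on the other strand, 72 bases before it. Over all 32851 windows of this length, 12.4% held TATAAA. Other forms of the TATA box were not searched, and the window of Nts holds TATATATA and that of Pyy TATAAG. The cAMP response core occurred in the windows of Pcsk1 (3 matches, 2 of them in 1 overlapping palindrome), Pcsk2 and Nts (1 match each) and in 17.8% of all windows. CANNTG, the E-box bound by basic helix-loop-helix factors such as Neurod1, was found in 6 of the 7 windows, all but that of Pcsk1, against 66.2% of all windows, and TAATTA, a homeodomain core, in none against 4.84%. A match of letters does not show a bound site, and RefSeq lists another start for Insl5, while the one used lies 114 bases from that of GENCODE.

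The rise of the L-cell hormones was set beside a list of other hormones of enteroendocrine cells. Of 10 genes of this list tested, 1 rose and 5 fell, with a median log2 fold change of -0.86 against 0.0066 over all genes tested. The 10 include Tph1, an enzyme of serotonin synthesis and not a hormone, and Tac1, Penk and Vip, which neurons also make. None of these passed, and the median is thus not that of endocrine hormones alone. Of all genes tested, 19.4% rose and 16.6% fell. Cck (cholecystokinin) rose, from 1.19 ± 0.48 to 7.05 ± 1.91 FPKM, by 2.17 on the log2 scale (limma adjusted p = 7.5e-07), and the groups did not overlap. Gal (galanin) fell by 1.495, Sst (somatostatin, of D cells and neurons) by 1.47, Nmu (neuromedin U) by 1.26, Nmb (neuromedin B) by 0.93 and Sct (secretin) by 0.81, with limma adjusted p of 0.0037, 0.015, 0.041, 0.0021 and 0.014. Gal, Sst and Nmu are also made by neurons and were highest in vehicle replicate 8, at 72.8, 43.8 and 28.7 FPKM. Without that mouse 4 genes fell and Nmu no longer passed (limma adjusted p = 0.053). Gip, the hormone of K cells, had 1 read in each group.

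Chga (chromogranin A), the general marker of endocrine granules, averaged 12.04 ± 2.54 FPKM in the AIMD group and 11.9 ± 3.14 FPKM in the vehicle group (log2 fold change 0.043 ± 0.17, SE; limma adjusted p = 0.87). Relative to Chga in the same mouse, a comparison added after the data were seen, Gcg was higher by 2.70, Pyy by 1.45 and Insl5 by 4.87 on the log2 scale in AIMD mice, and the groups overlapped for none of these 3 (exact permutation p = 0.00016 in each, adjusted 0.00036 over 7 ratios). The groups overlapped for the other members. Relative to Chga, Nts was higher by 1.23, Pcsk1 by 0.72 and Pcsk7 by 0.69 (adjusted exact permutation p = 0.0011, 0.0076 and 0.020). The difference for Pcsk2 was -0.24 (adjusted exact permutation p = 0.31). Of 16 granule and secretory genes tested, 2 rose (Chgb, chromogranin B, by 0.65, and Rab3d, a granule GTPase, by 0.55; limma adjusted p = 0.012 and 0.0037) and 4 fell, with a median of -0.25, a number of calls near the 36.0% of all genes. Those that fell were Cpe (carboxypeptidase E, which trims peptides after the convertases) by 1.21, Scg2 (secretogranin II) by 1.21, Snap25 by 1.03 and Syp (synaptophysin) by 0.63, with limma adjusted p between 0.0059 and 0.019. Each of the 4 is also expressed by neurons and was highest in vehicle replicate 8, and 5 of the 6 enteric neuron markers tested fell too. The part of nerve RNA in these values was not tested. Without vehicle replicate 8, 2 granule genes still rose and 4 fell, and the median was -0.021.

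**Figure D5:**
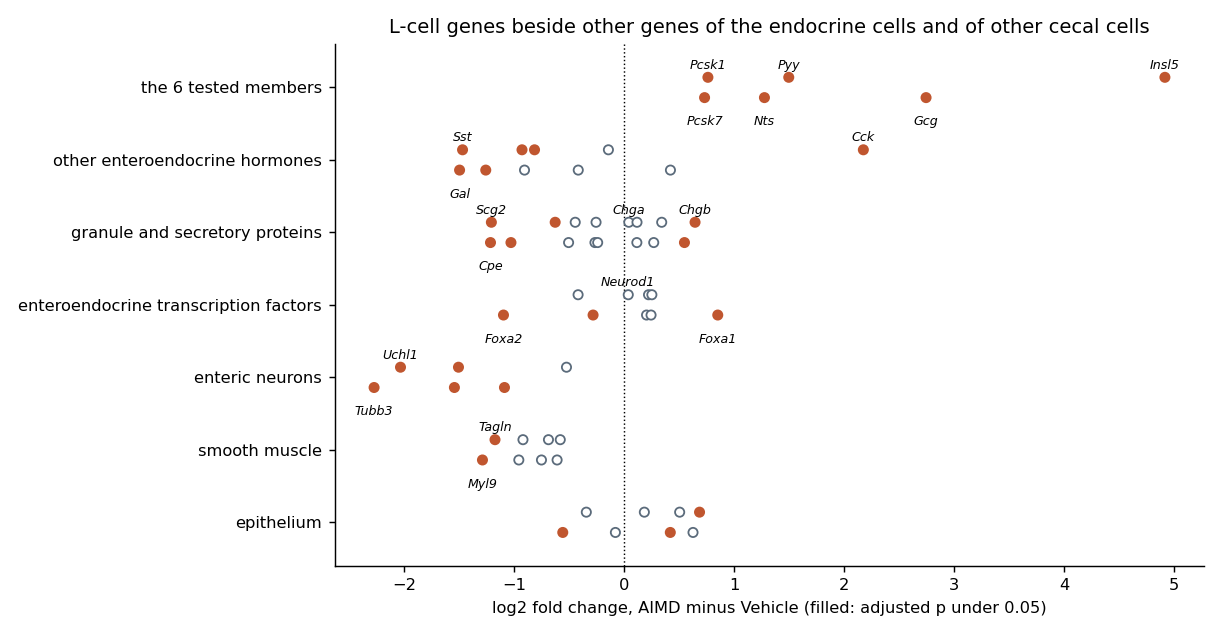
Log2 fold change (AIMD minus vehicle) of each tested gene of 7 lists, with filled dots for a limma adjusted p under 0.05 and open dots otherwise. The 6 tested members all lie above 0. The list of other hormones (except Cck and Tph1) and the markers of enteric neurons lie below it.

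Among 9 transcription factors of the endocrine lineage that could be tested, 1 rose and 2 fell, again near the 36.0% of all genes. Foxa1 rose by 0.85 and Foxa2 fell by 1.10 (limma adjusted p = 0.00073 and 0.0047), and both belong to the forkhead family that acts on Gcg in endocrine cells. Neurod1, a driver of endocrine differentiation, was at 0.69 ± 0.18 and 0.71 ± 0.47 FPKM in AIMD and vehicle-treated mice (limma adjusted p = 0.89). Among other convertases, Furin, which cuts many precursors in the secretory pathway, fell by 0.57 (limma adjusted p = 0.0015), and Pcsk5, Pcsk6 and Mbtps1 did not pass. The rise of Pcsk1 and Pcsk7 was thus not shared by every member of the family.

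Of 7 tested receptors and transporters by which L cells sense their surroundings, none rose and 3 fell: Agtr1a by 0.88, Ffar2 (a short-chain fatty acid receptor) by 0.84 and Lepr by 0.61 (limma adjusted p = 0.0065, 0.0098 and 0.026). Agtr1a and Ffar2 were at 3.67 and 2.27 FPKM in vehicle replicate 8, and without it 4 genes fell and 2 rose. Of 7 receptors and peptidases that act on the released peptides, Mep1b (meprin, a brush border metalloprotease) rose by 1.28 and Glp2r, the GLP-2 receptor, by 0.33 (limma adjusted p = 2.1e-05 and 0.049), and none fell. The number of calls in both lists was near the 36.0% of all genes, of which 19.4% were higher and 16.6% lower. The values are those of the whole cecum, not of L cells alone. Dpp4, which inactivates GLP-1, averaged 3.06 ± 1.35 FPKM in the AIMD group and 1.85 ± 0.98 FPKM in the vehicle group (log2 fold change 0.62 ± 0.24, SE; limma adjusted p = 0.054), and passed without vehicle replicate 8 (0.76, limma adjusted p = 0.012).

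Markers of other tissues were read in the same mice. Gcg is also the hormone gene of pancreatic alpha cells. Of 11 pancreatic markers 1, Cela1, was high enough to be tested (limma adjusted p = 0.98). Ins1 and Ins2, the insulin genes of the islet, and Prss1 had 0 reads in all 15 mice. The other 7 had few reads, and 6 of these 7 were at a higher mean FPKM in the AIMD group, among them Cpa1 with 17 reads against 1, Cpb1 with 12 against 3 and Pnlip with 11 against 0. Their part in the Gcg values was not tested. The pancreatic sum, nearly all Cela1, was 43.5 to 78.4 FPKM in the AIMD group and 25.8 to 81.0 FPKM in the vehicle group. Of 8 epithelial markers, 2 rose and 1 fell (median 0.30), and of 8 smooth muscle markers 2 fell (median -0.83). Of 8 ileal markers tested, 3 rose and 0 fell (median 0.83), and of the 14 clock genes 1 rose and 1 fell. The shares over all genes tested were 19.4% higher and 16.6% lower. The median muscle sum was 732 FPKM with AIMD and 1233 FPKM with vehicle, and the median neuron sum 6.46 and 23.4 FPKM, opposite to the hormones, and the part of these shifts in the hormone levels was not tested. Without vehicle replicate 8, the log2 fold changes of Gcg, Pyy, Insl5, Nts, Pcsk1 and Pcsk7 were 2.54, 1.34, 4.81, 1.14, 0.73 and 0.76, and all passed.

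The genes most like each member across the 15 mice, by Pearson's r of values centred within groups, are given as a description, since the highest of 11971 values are high in part by selection. They were Zfp273, Armc1 and Sclt1 for Gcg (r = 0.92, 0.92 and 0.91), Akap1, Hoxa13 and Nln for Pyy (0.88, 0.86 and 0.86), Xylb, Cradd and Ccdc94 for Insl5 (0.85, 0.84 and 0.83), and Nat2, Txndc17 and Slc33a1 for Nts (0.94, 0.93 and 0.91). For the convertases they were Ampd3, Samd9l and Rhox5 for Pcsk1 (0.86, 0.81 and 0.80) and, for Pcsk7, included Ngef and Cttn (0.93 and 0.92). Hoxa13, a homeobox gene of the distal gut, also rose in AIMD mice, by 1.31 (limma adjusted p = 0.0037).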

How the data were processed

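Poly-A selected, stranded libraries of flash-frozen cecum were sequenced by the authors as 50-base single reads, aligned to GRCm38 with STAR and counted with featureCounts on GENCODE genes. The deposited values are FPKM per gene symbol, with 1 column per mouse. Of 45808 rows, 4 carried a repeated symbol and were not used. Whole reads recovered from the steps of the deposited FPKM (24278 of 24279 detected genes within 0.02 reads) gave the depths, and genes whose annotated length gave no whole reads took the shortest length that did.

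The FPKM were divided by size factors (median of ratios), which were all 1.01 and so hardly changed the mice relative to each other. After adding 0.5, log2 values of genes with at least 0.5 FPKM in 7 mice were tested with limma 3.58.1 (R 4.3.3; trend, two-sided, Benjamini–Hochberg, threshold 0.05). Ratios, correlations and single values were tested by two-sided exact permutation in Python 3.11.15. Scripts were tested on simulated data. The mice of a group are separate animals. Genes named are the 7 members, genes of the lists (as a rule the 4 called genes of a list with the largest absolute log2 fold change and a mean of at least 1 FPKM in the higher group, plus genes needed to say whether a cell type is present) and the 3 most alike genes of each tested member, without members or predicted genes. Some genes that this rule names are not reported here. Rnf214 and the genes of the closing observations were chosen after their values were seen. Members and lists were chosen with earlier results of these data known. Coordinates are GRCm38, and gene overlaps come from GENCODE M21.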

Additional observations from a re-analysis of the deposited data

Results flagged for a closer look

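The Pcsk2 level of vehicle replicate 8, 0.40 FPKM, lay far from the other vehicle-treated mice, the next of which was at 0.19 FPKM. The gap was 0.563 of the range of the group, above Dixon's critical value for 8 samples. Such a gap arises by chance in about 1 of 20 groups, and 14 groups (7 genes in 2 treatments) were examined. The value rests on 14 reads in the least deeply sequenced mouse, which also had the highest neuron and muscle markers, whose part in it was not tested.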

How the results depend on the processing

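The 6 tested genes kept their direction and passed in all 150 refits (10 other settings and 15 fits without 1 mouse for each gene). A fit with the replicate number as a block, which does not pair the mice (deviations of same-numbered mice correlated between -0.35 and 0.43) and in effect drops vehicle replicate 8 (no AIMD mouse has that number), gave log2 fold changes of 2.54 for Gcg, 1.34 for Pyy, 4.81 for Insl5, 1.14 for Nts, 0.73 for Pcsk1 and 0.76 for Pcsk7, and all passed. Pcsk2 gave -0.19 without a filter (limma adjusted p = 0.17), and -0.23 to -0.12 with 1 mouse left out, where 10 of 15 tests no longer passed (without AIMD replicates 1 to 6 or vehicle replicates 4, 5, 6 or 8). Quantile normalization kept its sign, and Pcsk2 had no value with the clock axis, the block, the stricter filter, the rank-sum test or the fit to reads, since it was filtered out there. The count of genes called was 4315, stayed between 3503 and 5118 under the other settings, and was 765 with an absolute log2 fold change of at least 1. Of the 21 ratios, 16 to 18 passed under every setting, and that of Pyy to Pcsk1 did not with a pseudocount of 0.1 (0.53, adjusted p = 0.096). These counts include every ratio with Pcsk2, which rests on few reads. Of the 12 correlations, 3 passed, but 1 with Spearman's rho, 1 with values centred within group and clock cluster, 0 without the 2 farthest mice, and 0 to 4 with 1 mouse left out. The 4 were without AIMD replicate 7. None passed without vehicle replicate 8, and 1 without vehicle replicate 1, 3, 4, 6 or 7. Over these omissions of vehicle-treated mice, the r of Gcg and Nts in that group was 0.82 to 0.99. Quantile normalization moved the median of all genes from 0.0066 to 0.012 and changed a list's count of calls by at most 2. Depth limits Insl5 in vehicle-treated mice and Pcsk2 in both groups.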

Other observations

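Several endocrine genes under the filter had more reads in AIMD mice, and they are given as reads because no test was run on them. They were chosen after their values were seen. Other genes of these lists under the filter went the other way. Among those were Mnx1 (37 reads over the AIMD group and 56 over the vehicle group), Rab3c (126 and 268) and Kif5c (142 and 313). The reads thus show no general rise of the endocrine genes under the filter. Lpar5, a lysophosphatidic acid receptor of the L-cell list, had 131 reads summed over the AIMD group and 11 over the vehicle group (0.89 ± 0.43 FPKM, SD, n = 7, and 0.10 ± 0.11 FPKM, SD, n = 8), without overlap. Insm1, a transcription factor of endocrine precursors, had 108 and 27 reads (0.37 ± 0.14 and 0.14 ± 0.086 FPKM), also without overlap. Avpr1b, a vasopressin receptor, had 66 and 9 reads, and Ppy, the pancreatic polypeptide gene that neighbours Pyy, had 46 and 4. Ucn3 (urocortin 3) had 24 reads over the AIMD group and 0 over the vehicle group. In total, AIMD mice had more reads than vehicle-treated mice, so these counts are not to be read as folds.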
